A study of Mus musculus with 6 samples.

Results

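The fatty acid binding proteins are a family of small cytoplasmic proteins, each with a barrel-shaped pocket that holds a fatty acid or another lipid. The genes described here are Fabp1, Fabp2, Fabp4, Fabp5 and Fabp7, 5 of the 14499 genes in the deposited expression table. They were chosen by gene name, with earlier results of the same libraries known, among them a higher level of Fabp1 and Fabp2 in knockout livers. Each name had 1 row, so no choice between rows was needed, and all 5 passed the filter on low values, each being above 1 FPKM in all 6 libraries. Fabp3, Fabp6, Fabp9, Fabp12 and Pmp2, the other genes of the family, were not analysed here.

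The libraries were of total RNA from whole liver of mice on a mixed C57Bl/6; 129Sv background, aged 10 weeks, after 2 weeks of injury with DDC. DDC disturbs heme synthesis, blocks small bile ducts with porphyrin and brings a ductular reaction. The control group, WT_DDC, was wild type with 3 libraries, and Arid1a_KO_DDC, also with 3, carried a hepatocyte-specific knockout of Arid1a, a subunit gene of the BAF chromatin remodelling complex. All 6 livers were injured, so no level here is that of an uninjured liver. The Cre driver is not given in the sources used here, nor is it said whether each library came from its own mouse. The p-values therefore measure only how these libraries scatter, which may be technical.

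FABP1, the liver type, is among the most abundant cytosolic proteins of hepatocytes, where it carries fatty acids and other hydrophobic ligands such as bile acids and heme, and its gene is a classical target of the fatty acid receptor PPAR-alpha. FABP2, the intestinal type, is best known from enterocytes. FABP4 is the adipocyte type, found also in macrophages and capillary endothelium, FABP5 is the epidermal type, found also in macrophages, and FABP7 is the brain type, best known from glial cells.

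The upstream sequences of Fabp1 and Fabp2 are shown because these genes were the higher members in knockout livers. RefSeq promoter windows of the 250 bases before the start (GRCm38.p6) were matched for 3 of the 5 members, Fabp1, Fabp2 and Fabp7. Both genes are on the plus strand. The Fabp1 window is shown for chr6:71199629-71199826 and stops before the start of the gene in GENCODE. The Fabp2 window is chr3:122894822-122895071. Capitals mark matches to the 5 motifs searched on both strands.
Fabp1: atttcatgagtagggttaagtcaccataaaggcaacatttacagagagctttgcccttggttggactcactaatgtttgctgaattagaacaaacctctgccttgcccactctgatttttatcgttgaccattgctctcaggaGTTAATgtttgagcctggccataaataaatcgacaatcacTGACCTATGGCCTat
Fabp2: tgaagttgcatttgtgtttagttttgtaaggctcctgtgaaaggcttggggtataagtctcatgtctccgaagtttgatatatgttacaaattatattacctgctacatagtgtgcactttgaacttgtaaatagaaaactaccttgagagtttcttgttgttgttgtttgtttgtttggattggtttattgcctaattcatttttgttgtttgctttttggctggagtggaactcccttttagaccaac

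The motifs were AGGTCA (a nuclear receptor half-site), the direct repeat DR1 (AGGTCA repeated after a spacer of 1 base, with up to 2 mismatches over 12 letters), GTTAAT (an HNF1 half-site), TGTTTAC (a forkhead motif) and TATAAA. Fabp1 held a DR1 from base -67 to -55 on the minus strand with 1 mismatch, counted from the RefSeq start, and its first 6 bases are also a match to AGGTCA. Fabp1 also held GTTAAT from -107 to -102 and, past the part shown, TATAAA from -30 to -25 and a second AGGTCA from -9 to -4. The Fabp2 window held a match to none of the 5 motifs, and the Fabp7 window held 1, an AGGTCA from -171 to -166. Of 32851 promoter windows of the same length, 14% held AGGTCA, 3.24% a DR1, 6.43% GTTAAT, 3.17% TGTTTAC and 12.4% TATAAA. These matches describe letters and not binding.

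In the annotation (GENCODE M21, GRCm38) all 5 members are protein-coding genes whose principal transcript has 4 exons. Fabp1 (ENSMUSG00000054422) lies on chromosome 6 from 71199827 to 71205023, Fabp2 (ENSMUSG00000023057) on chromosome 3 from 122895072 to 122899506 and Fabp7 (ENSMUSG00000019874) on chromosome 10 from 57784881 to 57788450. Fabp4 (ENSMUSG00000062515, chromosome 3, 10204088 to 10208576) and Fabp5 (ENSMUSG00000027533, chromosome 3, 10012548 to 10016607) belong to a cluster of 5 family genes within 289 kb, with Pmp2, Fabp9 and Fabp12. RefSeq lists a pseudogene, Fabp5l2, that resembles Fabp5, so the share of reads between them, and with it the level of Fabp5, is uncertain.

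Levels are in FPKM, the fragments per kilobase of transcript scaled to the size of the library, and the absolute depth is unknown. The number of genes at or above 1 FPKM was 11280 in knockout replicate 3 and ran from 11657 to 11712 in the other libraries. The Arid1a level was 6.44 ± 1.25 FPKM for wild type and 5.14 ± 1.41 FPKM for knockout (SD, n = 3), and the groups overlapped. This gene-level value also covers non-hepatocyte cells and any exon outside the deletion, so it does not check the labels. Replicate 1 of both groups stood apart: the Y-linked gene Ddx3y was at 0.0527 and 0.0227 FPKM there and at 9.27 to 11.3 FPKM in the other libraries. Replicate 1 also has its own pair of library identifiers (L0566 and L0567, against L0602 to L0605), so the members' differences are also given for replicate 1 and for replicates 2 and 3 apart.

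Fabp1 made up nearly all of the family's transcript level in every library. Its share of the summed FPKM of the 5 genes was 89.4%, 95.6% and 94% in wild-type replicates 1, 2 and 3 and 96.3%, 97% and 97.2% in the knockout replicates. Ranked by FPKM among all genes, Fabp1 was between place 74 and place 97 in wild-type livers and between place 26 and place 36 in knockout livers. Fabp2 came next in all 6 libraries, and its lowest level of 38.4 FPKM was above the highest level of Fabp4, Fabp5 or Fabp7, which was 33.9 FPKM. Below it the order was not fixed. The ranges of Fabp5, Fabp7 and Fabp4 overlapped, and Fabp4 was the lowest of the 5 in every library except wild-type replicate 2, where Fabp5 was.

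Fabp1 was about 3 times as high in knockout livers. It was at 961, 1573 and 1389 FPKM in wild-type replicates 1, 2 and 3 and at 4202, 4297 and 3878 FPKM in the knockout replicates. The lowest knockout library was thus well above the highest wild-type library, and the knockout libraries lay closer together than the wild-type ones. The ratio of the group means was 3.16, and the log2 difference on the log2(FPKM + 1) scale was 1.69 (SE 0.22, 95% limma interval 1.16 to 2.21). The difference was 2.13 in the replicate 1 pair and 1.47 in replicates 2 and 3.

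Fabp2 was about doubled, from a lower level. Its wild-type libraries were at 38.4, 40.5 and 41.7 FPKM, within a narrow range, and its knockout libraries at 102, 88.8 and 84.4 FPKM, all above them. The ratio of the means was 2.28 and the log2 difference 1.17 (SE 0.13, 95% limma interval 0.85 to 1.48). It was 1.39 in the replicate 1 pair and 1.06 in replicates 2 and 3, so the larger difference lay in replicate 1 for both genes. Fabp1 was 25 to 38.8 times the level of Fabp2 in wild-type livers and 41.1 to 48.4 times in knockout livers, per length of transcript.

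In the fit across all 11839 genes tested, Fabp1 and Fabp2 passed the threshold of 0.05 (limma, Benjamini-Hochberg adjusted p = 0.0381 and 0.0268). The background in that fit was 0.135% of genes higher in knockout livers (16 genes) and 0.355% lower (42 genes), and 11.1% (1320 genes) had an unadjusted p under 0.05 in either direction. A positive difference was found for 5988 genes and a negative one for 5851. Groups that did not overlap, as those of Fabp1 and Fabp2, were found for 7.09% of genes with knockout higher and 9.56% with knockout lower. The higher level of these genes was known when the family was chosen, so these p-values and shares are a description. Their place past the threshold did not hold when a library was left out: Fabp1 had adjusted p = 0.05 to 0.153 over the 6 omissions and passed in none, and Fabp2 had 0.0401 to 0.12 and passed only without knockout replicate 1, although the log2 differences stayed between 1.48 and 1.83 for Fabp1 and between 1.09 and 1.22 for Fabp2. The calls over all genes changed in the same fits: there were 0 higher and 0 lower without knockout replicate 3, 0 and 6 without wild-type replicate 2, and 0 and 2 without wild-type replicate 3. Without wild-type replicate 1 there were 9 higher and 26 lower, without knockout replicate 2 there were 6 and 40, and without knockout replicate 1 there were 30 (0.253%) and 37 (0.313%).

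**Figure D1:**
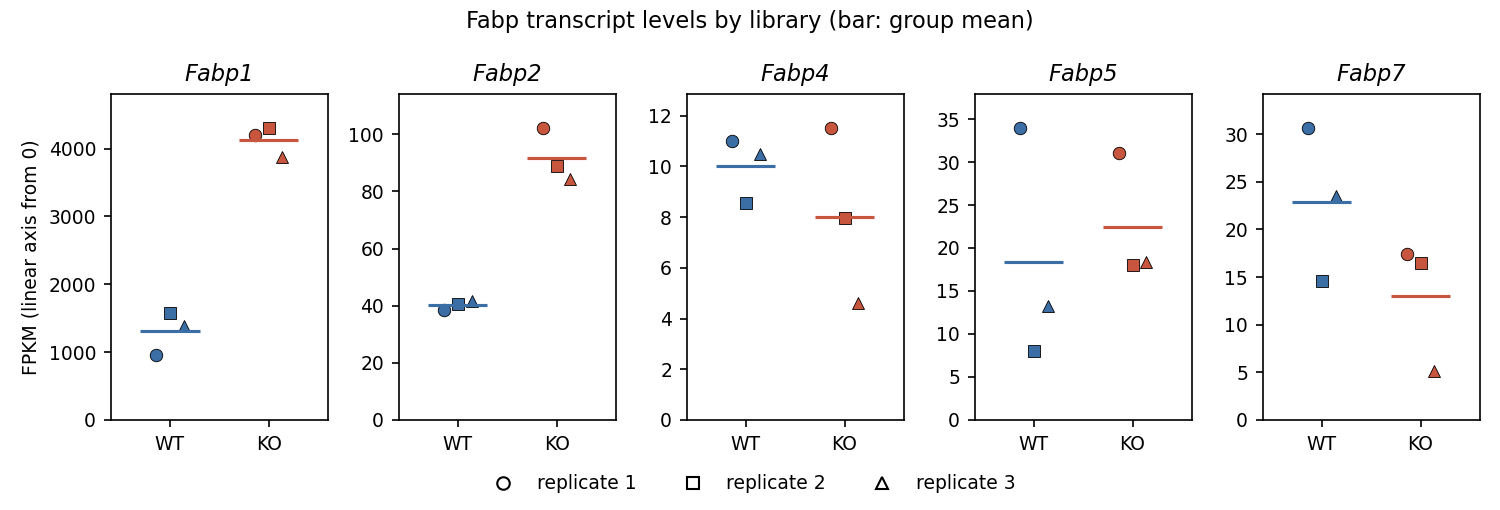
FPKM of the 5 Fabp genes in each library (vertical axis, linear from 0, scaled for each gene) for wild-type (WT, blue) and Arid1a knockout (KO, red) livers after DDC; symbols mark replicates and bars group means. The groups are apart for Fabp1 and Fabp2 and overlap for Fabp4, Fabp5 and Fabp7, and Fabp5 is highest in replicate 1 of both groups.

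The summed level of hepatocyte markers and that of most single markers overlapped between the groups. Alb, the albumin gene, ranged over 27125 to 31211 FPKM (wild type) and 26589 to 34012 FPKM (knockout). Relative to Alb in the same library, Fabp1 was at 0.0308, 0.058 and 0.0481 in wild-type replicates and 0.127, 0.162 and 0.114 in knockout replicates. The summed level of 19 hepatocyte markers was 80243 to 86432 FPKM in wild-type livers and 80715 to 106116 FPKM in knockout livers, so the ranges overlapped. Single markers with groups apart were Ttr and Apoh, both higher in knockout livers, and Cyp3a11, which was lower (log2 differences 0.60, 0.44 and -0.60), named after their values were seen. Over all genes 7.09% had groups apart with knockout higher and 9.56% with knockout lower. Cyp2e1 and Tdo2, also named after their values were seen, had larger differences (-1.29 and 0.95), with overlapping groups. Of the 19 hepatocyte markers 0 passed in limma in either direction, 4 had an unadjusted p under 0.05 (11.1% of all genes did), and their median log2 difference was 0.09, beside 0.003 over all genes tested. In total liver RNA, fewer cells of a type and less RNA per cell cannot be told apart.

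Fabp4 did not differ between the groups beyond the spread of the libraries. It was at 11, 8.57 and 10.5 FPKM in wild-type replicates 1, 2 and 3 and at 11.5, 7.95 and 4.62 FPKM in the knockout replicates. Knockout replicate 3 was the lowest and knockout replicate 1 the highest of all 6, so the groups overlapped. The log2 difference was -0.36 (SE 0.29, 95% limma interval -1.05 to 0.33), and it was -0.06 without knockout replicate 3. It was 0.05 in the replicate 1 pair and -0.57 in replicates 2 and 3.

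Fabp7 had the widest range of the 5 genes, 5.96-fold between its highest and lowest library. Its levels were 30.6, 14.6 and 23.5 FPKM in wild-type livers and 17.4, 16.5 and 5.14 FPKM in knockout livers. Wild-type replicate 2 was below knockout replicates 1 and 2, so the groups overlapped, although the lowest library was again knockout replicate 3. The log2 difference was -0.87 (SE 0.47, 95% limma interval -1.98 to 0.25), and -0.35 without knockout replicate 3. It was -0.78 in the replicate 1 pair and -0.91 in replicates 2 and 3. The intervals of Fabp4 and Fabp7 hold 0 and also falls of 1 log2 unit.

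Fabp5 had overlapping groups, with a wide spread among the wild-type libraries. It was at 33.9, 7.97 and 13.3 FPKM in wild-type replicates 1, 2 and 3 and at 31.1, 18 and 18.4 FPKM in the knockout replicates. Both replicate 1 libraries, which lack Y-linked transcripts, were above all others. They also have their own library identifiers, so these features cannot be told apart. The log2 difference between genotypes was 0.47 (SE 0.49, 95% limma interval -0.70 to 1.64). It was -0.12 in the replicate 1 pair and 0.76 in replicates 2 and 3, where both knockout libraries were above both wild-type libraries. Without wild-type replicate 1 the difference was 1.01, and without wild-type replicate 2 it was 0.03. None of Fabp4, Fabp5 and Fabp7 passed over all genes (limma adjusted p = 0.698, 0.771 and 0.555).

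**Figure D2:**
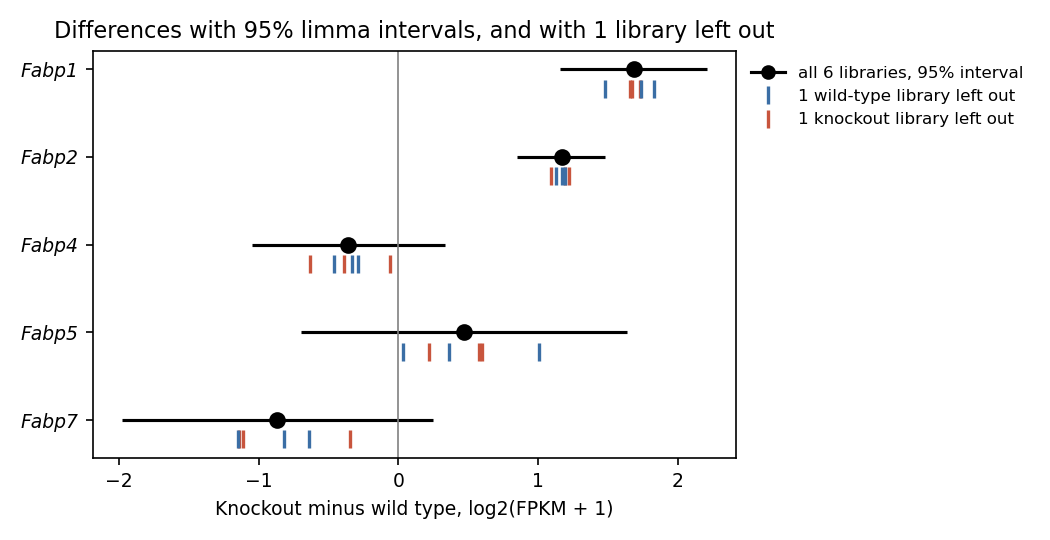
Knockout minus wild type on the log2(FPKM + 1) scale (horizontal axis) for the 5 Fabp genes, with 95% limma intervals (black) and the same difference with 1 library left out (ticks below). The intervals of Fabp1 and Fabp2 lie above 0 and those of Fabp4, Fabp5 and Fabp7 cross it; the Fabp5 ticks run from 0.03 to 1.01.

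Markers of the cell types known for Fabp4, Fabp5 and Fabp7 varied between the same libraries. The summed level of 20 macrophage markers was 1555, 1149 and 1285 FPKM in wild-type replicates 1, 2 and 3 and 1083, 983 and 711 FPKM in knockout replicates. The groups did not overlap, and knockout replicate 3 was the lowest, as for Fabp4 and Fabp7. Of 19 macrophage markers tested 0 passed in limma (8 with an unadjusted p under 0.05, beside 11.1% of all genes), 17 had a negative difference, beside 5851 of 11839 genes, and the median was -0.47. The complement genes C1qb and C1qa and the lysozyme gene Lyz2 had the highest levels among them, with means of 225, 221 and 225 FPKM for wild type and 150, 147 and 128 FPKM for knockout. Lyz2 passed without knockout replicate 1 (log2 difference -1.13, limma adjusted p = 0.0448). Clec4f, which marks resident Kupffer cells, had overlapping groups and a log2 difference of -0.20. Other genes on the list, named after their values were seen, ranged more widely. Marco, Vsig4 and Timd4 had differences of -1.26, -0.73 and -0.49, and Cd5l had one of 0.16. Among Marco, Vsig4, Timd4 and Cd5l only Marco had groups apart. Over the 19 tested, groups were apart for 8 with knockout lower and 0 with knockout higher, beside 9.56% and 7.09% of all genes. C1qb, C1qa and Lyz2 were among those lower.

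The 20 endothelial markers summed to 172, 124 and 195 FPKM in wild-type livers and 183, 108 and 77.2 FPKM in knockout replicates 1, 2 and 3. Knockout replicate 1 was thus high and knockout replicate 3 low, as for Fabp4. Of 18 tested, 1 fell, Ly6c1, with a log2 difference of -1.41 (limma adjusted p = 0.0386), beside 0.355% of all genes. The median was -0.33, and 17 of the 18 had a negative difference, beside 5851 of 11839 genes. Ly6c1 lost this call with any 1 library left out other than knockout replicate 2, and in L0602 to L0605 alone. The 16 stellate cell markers summed to 301 to 416 FPKM in wild-type livers and 213 to 327 FPKM in knockout livers, with knockout replicate 3 again the lowest. In limma 0 of 16 passed the threshold and 2 had an unadjusted p under 0.05, beside 11.1% of all genes. Their median was -0.46, near that of the macrophage markers, and 13 of the 16 had a negative difference. Of 12 adipocyte markers 5 had values, summing to 19.2 to 30.9 and 13.3 to 20.1 FPKM with a median log2 difference of -0.44, and Adipoq, Lep and Plin1 were not analysed here. Of 10 glial and neural markers 4 had values, summing to 3.86 to 4.21 and 1.61 to 5.11 FPKM, below the level of Fabp7 in every library, and Gfap, S100b and Sox10 were not analysed here. The glial and neural sum was also lowest in knockout replicate 3, the library with the fewest genes at or above 1 FPKM. The adipocyte sum was lowest in knockout replicate 2, and the hepatocyte and biliary sums in wild-type replicate 1. No marker with values in these lists was at 0 in all libraries. The part of cell composition in the levels of Fabp4, Fabp5 and Fabp7 was not tested.

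Of 16 biliary markers 14 had values, summing to 183 to 455 FPKM in wild-type livers and 250 to 452 FPKM in knockout livers. Most of each sum was Spp1, at 108, 348 and 271 FPKM in wild-type replicates and 229, 195 and 406 FPKM in knockout replicates. The sums therefore say little about the other markers. All 14 were tested and 3 fell, beside 0.355% of all genes. They were Ddr1, a collagen receptor, Cldn4, a tight junction protein, and Krt23, a keratin (log2 differences -1.66, -1.42 and -1.99, limma adjusted p = 0.0317, 0.0386 and 0.0447). None of the 14 rose, and the median was -0.60. A negative difference was found for 11 of them, beside 5851 of 11839 genes. An unadjusted p under 0.05 was found for 6, beside 11.1% of all genes. Groups did not overlap for 5 with knockout lower and 1 with knockout higher, beside 9.56% and 7.09% of all genes. The 3 calls went to 0 without knockout replicate 2 or 3 or wild-type replicate 2 or 3, to 1 without knockout replicate 1 and to 2 without wild-type replicate 1. Ddr1, Cldn4 and Krt23 had lower means in the livers in which Fabp1 and Fabp2 were higher, and whether these differences are related was not tested.

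**Figure D3:**
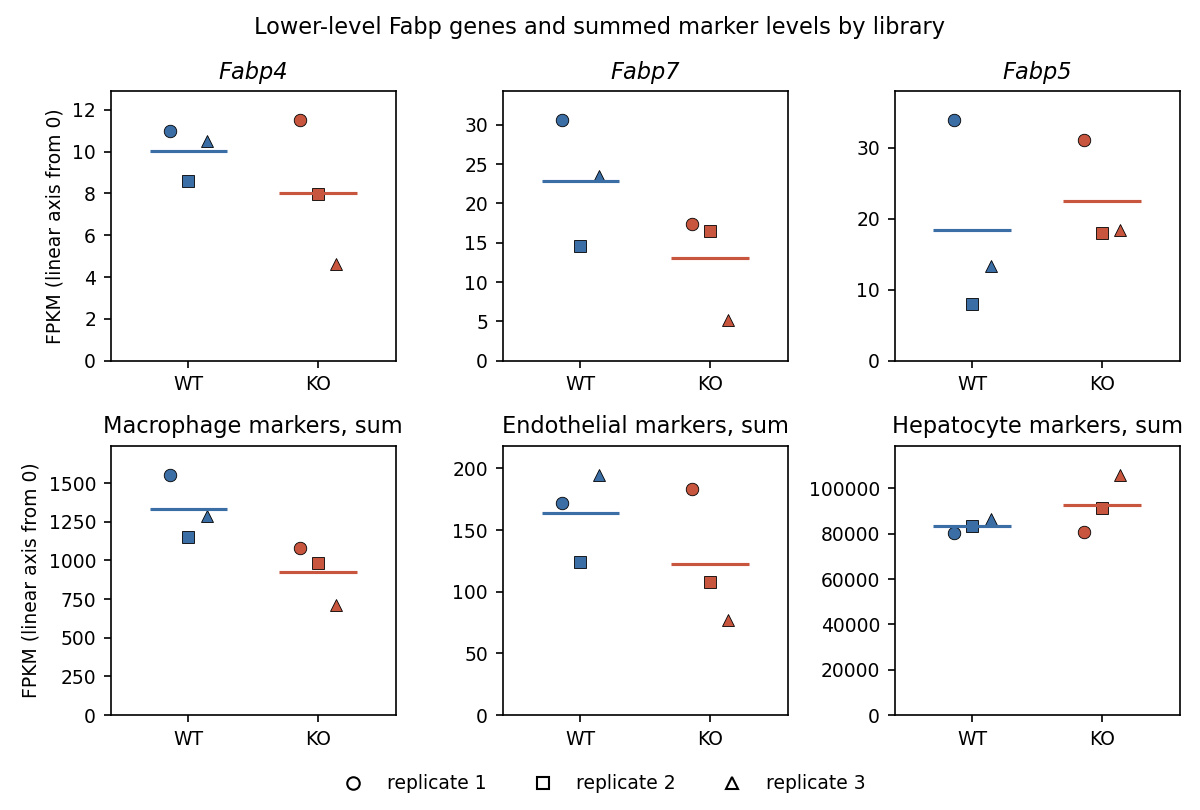
FPKM (vertical axes, linear from 0) of Fabp4, Fabp7 and Fabp5 above and of the summed macrophage, endothelial and hepatocyte markers below, for wild-type (WT) and knockout (KO) libraries, with symbols for replicates and bars for group means. Knockout replicate 3 is lowest for Fabp4, Fabp7 and the macrophage and endothelial sums and highest for the hepatocyte sum.

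Of the retinoid-binding relatives of the family, which share its fold, Rbp2, the intestinal retinol-binding protein, was at most 1.08 FPKM and was not tested. It was listed at 0 in knockout replicates 1 and 3. Rbp7, Crabp1 and Crabp2 were not analysed here.

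PPAR-alpha target genes, the group to which Fabp1 is usually assigned, did not pass as single genes, although some had large differences. Of 40 tested, 0 passed in either direction in limma, 6 had an unadjusted p under 0.05, near the 11.1% over all genes. A positive difference was found for 29 of them, beside 5988 of 11839 genes, with a median of 0.12 beside 0.003 over all genes. Acaa1b, a peroxisomal thiolase, was at 235, 393 and 268 FPKM in wild-type livers and 595, 796 and 732 FPKM in knockout livers (log2 difference 1.27, SE 0.23, limma adjusted p = 0.0982). Its groups did not overlap. Vnn1, a pantetheinase, was at 2.14, 4.67 and 2.52 FPKM and at 14.8, 9.32 and 6.81 FPKM (log2 difference 1.45, adjusted p = 0.157). Cyp4a31, a fatty acid hydroxylase, had a difference of 0.98, and Aldh3a2, a fatty aldehyde dehydrogenase, one of -1.13 (adjusted p = 0.341 and 0.14). With a term for the library identifiers 2 of the 40 passed, Acaa1b and Cyp4a14, both higher (adjusted p = 0.0476 and 0.0325), in a fit that called 33 of 11839 genes higher (0.279%).

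Plin2, a lipid droplet coat protein on the same list, named after its values were seen, ranged over 134 to 419 FPKM (wild type) and 185 to 238 FPKM (knockout). The groups overlapped, with a log2 difference of -0.20.

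Genes of fatty acid uptake and activation showed 0 of 16 tested members past the threshold in limma, beside 0.135% of all genes higher and 0.355% lower. An unadjusted p under 0.05 was found for 1, beside 11.1% of all genes, and the median was 0.15. That gene was Acsm3, a medium-chain acyl-CoA synthetase, at 11.3, 10.1 and 10.1 FPKM in wild-type livers and 14.5, 28.3 and 37.3 FPKM in knockout livers (log2 difference 1.17, SE 0.32, adjusted p = 0.243); it passed without knockout replicate 1 (log2 difference 1.54, adjusted p = 0.0389). The fatty acid transporters Slc27a1 and Cd36 had differences of -0.36 and 0.28, and the caveolin gene Cav1 one of 0.54 (adjusted p = 0.481, 0.648 and 0.505). Lipid droplet and lipoprotein genes likewise had 0 of 25 past the threshold in limma and 3 with an unadjusted p under 0.05. The shares over all genes were those just given, and the median of the list was -0.01. G0s2, an inhibitor of fat breakdown, had means of 25 ± 4.32 and 52.1 ± 16 FPKM (SD, n = 3; limma adjusted p = 0.196). The phosphatidate phosphatase Lpin1 had a log2 difference of 1.02 (adjusted p = 0.426), with knockout replicate 3 highest at 43.1 FPKM. Abhd5, a coactivator of fat breakdown, and Apoa4, an apolipoprotein, had differences of 0.40 and 0.44 (adjusted p = 0.432 and 0.48).

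Transcription factors known to act on liver and intestinal Fabp genes, or related to those that do, had 0 of 20 past the threshold in limma. Over all genes 0.135% were called higher and 0.355% lower. An unadjusted p under 0.05 was found for 1 factor, beside 11.1% of all genes, and the median was 0.14. That factor was Foxa2, a forkhead factor of hepatocytes, at 8.56, 10.8 and 12.9 FPKM in wild-type livers and 15.6, 13.8 and 15.7 FPKM in knockout livers (log2 difference 0.46, SE 0.17, adjusted p = 0.39). Rxrb had a difference of 0.23, Ppard of -0.36 and Pparg of -0.60 (adjusted p = 0.633, 0.66 and 0.705). Ppara and Hnf4a, named after their values were seen, were at 2.31 ± 1.27 and 2.51 ± 0.777 FPKM and at 112 ± 11.9 and 121 ± 26.1 FPKM in wild-type livers and knockout livers (SD, n = 3 libraries each), with overlapping groups.

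Fabp2 is an enterocyte gene, so genes of the intestinal brush border were set beside it; this list was drawn up with the rise of Cdhr2 known. Of 24 genes 8 had values and 7 were tested, of which 1 rose and 1 fell, with a median of -0.06. Over all genes tested 0.135% were called higher and 0.355% lower. Cdhr2, a protocadherin linking microvilli, rose from 0.191, 0.261 and 0.265 FPKM to 4.74, 9.94 and 7.93 FPKM (log2 difference 2.74, SE 0.25, limma adjusted p = 0.0171). It was under 1 FPKM in every wild-type library and passed the filter only through the knockout libraries. Its call is therefore a description. Treh, the brush border trehalase, fell from 24.5, 20.1 and 18.8 FPKM to 6.06, 3.13 and 3.83 FPKM (log2 difference -2.08, SE 0.23, adjusted p = 0.0245). Both calls were lost without knockout replicate 3, wild-type replicate 2 or wild-type replicate 3, and that of Treh also without wild-type replicate 1. Myo7b, a microvillar myosin, was at 1.21 to 1.88 and 0.0891 to 1.05 FPKM, and Eps8 and Anpep had differences of -0.45 and 0.13 (adjusted p = 0.329, 0.505 and 0.861). The enterocyte-defining genes Vil1, Si, Alpi and Cdx2 were not analysed here.

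**Figure D4:**
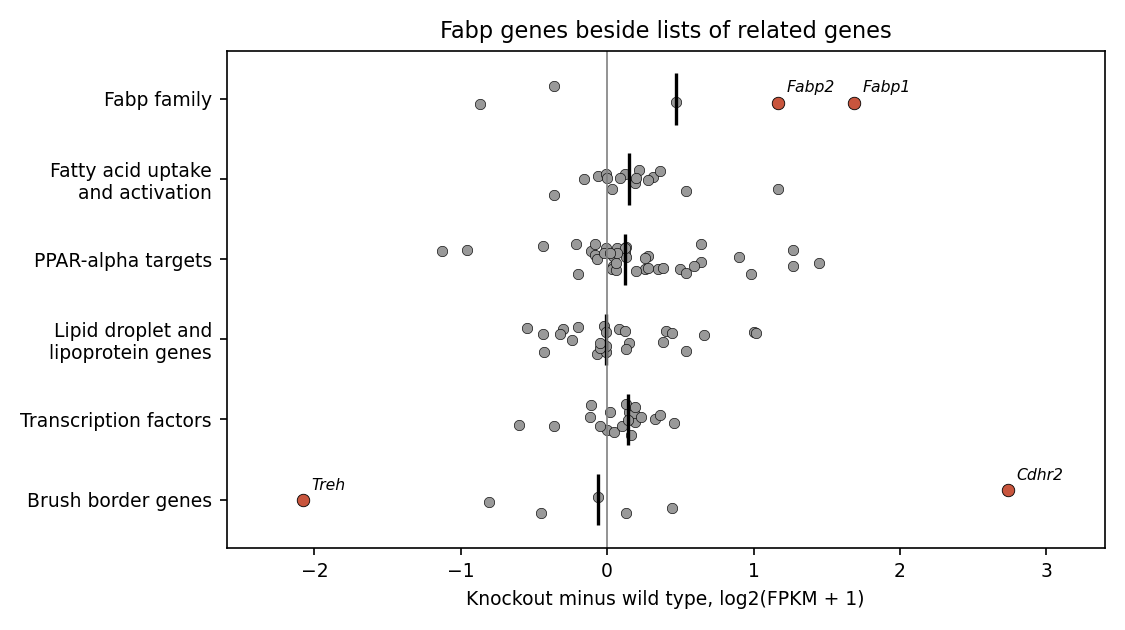
Knockout minus wild type on the log2(FPKM + 1) scale (horizontal axis) for each tested gene of the Fabp family and 5 lists of related genes (rows; points are spread vertically at random); red, named points passed the threshold over all genes and black bars are list medians. Among the 5 related lists only Cdhr2 and Treh are red, and the medians lie between -0.06 and 0.15.

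Likeness of pattern was measured as Pearson r of log2(FPKM + 1) over the 6 libraries, among 6998 other genes with a mean of at least 5 FPKM, as a description without a test. The most similar gene to Fabp1 was Pdia6, a protein disulfide isomerase (r = 0.9972), at 114 to 130 FPKM in wild-type livers and 189 to 196 FPKM in knockout livers, followed by Dgkq and Amd1 (r = 0.9952 and 0.9906). Ak4, Pdia6 and Ikbkb were nearest to Fabp2 (0.9831, 0.9806 and 0.9803). Fabp4 was most like Adprh, Bgn and Dnase1l3 (0.9854, 0.984 and 0.983), Bgn being a matrix proteoglycan. Fabp5 was most like Matr3, Cyp2c54 and Tmem201 (0.9838, 0.9804 and 0.9725), and Fabp7 most like Cd38, Gltp and Lbh (0.9977, 0.9958 and 0.9914). Between 9 and 33 of the 6998 genes exceeded an r of 0.95 for each member, and over 6 libraries a high r need not mean a relation. The genes named for Fabp1 and Fabp2 all had groups apart with knockout higher. That split was known for Fabp1 and Fabp2 when the family was chosen. Among the members, the pairs most alike were Fabp1 with Fabp2 (r = 0.97), which were chosen with their shared direction known, and Fabp4 with Fabp7 (r = 0.92), whose lowest library was the same.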

How the data were processed

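The authors deposited log2 FPKM values of 14499 genes in 6 libraries. The submitters' processing notes name TopHat2 2.0.6, Cufflinks, mm10 and GRCm38, without an annotation. The lowest deposited value, -10, stands for 0 FPKM plus a constant of 0.000977, which was subtracted (afterwards 100% of 60069 values between 1 and 50 had 6 significant digits). FPKM depend on gene length and library composition, and depth is unknown.

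Genes with at least 1 FPKM in at least 3 of 6 libraries (11839) entered a limma fit (version 3.58.1, R 4.3.3) on log2(FPKM + 1) (eBayes with trend, two-sided, Benjamini-Hochberg over all genes), which understates differences of low genes. An exact permutation test of 3 against 3 cannot go below 0.1. The fit was tested on simulated data. Groups come from titles. The members, lists and rule for naming genes were chosen with earlier results of these data known. Named were all members, relatives and Arid1a (some genes are not reported here), list members past the threshold with up to 4 others of smallest p, the 3 genes most like each member, and some marker genes of high level. Other genes said to be named after their values were seen, and Clec4f, Adipoq and other defining markers, fall outside this rule. Motifs were searched in RefSeq promoters. Alternatives were pseudocounts of 0.1 and 5, other filters, scalings and eBayes settings, a replicate block, a library identifier term, and subsets of libraries.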

Additional observations from a re-analysis of the deposited data

Results flagged for a closer look

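In Fabp4 and Fabp5, the knockout minus wild type difference had opposite signs in replicate 1 (1 library per group, without Y-linked transcripts) and in replicates 2 and 3, where the groups did not overlap. With so few libraries in each set, scatter alone can give this pattern. Its share over all genes was not computed, so it is a description of these members. The interaction between genotype and these sets of libraries, fitted with limma to log2(FPKM + 1), was -0.62 for Fabp4 (SE 0.46, adjusted p = 0.703) and 0.88 for Fabp5 (SE 0.43, adjusted p = 0.597), and neither passed. In replicate 1 both differences were small, at 0.05 for Fabp4 and -0.12 for Fabp5. The same term was -0.66 for Fabp1 (SE 0.26, adjusted p = 0.55), with the same sign of the difference in both sets.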

How the results depend on the processing

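Over 17 alternatives each, the 5 members kept the sign of their difference. Fabp1 ranged from 1.47 to 1.83 (adjusted p = 0.0295 to 0.153) and passed the threshold in 9; it did not pass without a filter (1.69, adjusted p = 0.0578), with the replicate block (1.69, 0.0819) or with any 1 library left out (1.48 to 1.83). Fabp2 ranged from 1.06 to 1.22 (adjusted p = 0.0221 to 0.12) and passed in 9; it did not pass in libraries L0602 to L0605 alone (1.06, 0.0587), with quantile normalization (1.13, 0.0599), with the replicate block (1.17, 0.0819) or with 1 library left out (1.09 to 1.22), other than knockout replicate 1. Fits with a library left out also have fewer libraries. With the replicate block the differences were unchanged, with SE 0.19 against 0.22 for Fabp1 and 0.13 in both fits for Fabp2. That fit leaves fewer degrees of freedom for the scatter of the libraries. The cause of the losses in the other fits was not tested. Fabp4, Fabp5 and Fabp7 passed in none, at -0.63 to -0.06, 0.03 to 1.01 and -1.15 to -0.35. Replicate numbers 2 and 3 did not pair the samples: the deviations of same-numbered libraries had correlations across genes of 0.133 and 0.0212. Wild-type replicate 3 was closer to knockout replicate 2 (0.26). The replicate 1 libraries did go together, with the highest correlation of all pairs (0.346). Each had negative correlations with the other group's libraries of other numbers (-0.307 to -0.0569). The fit used for the p-values of the Results had no term for replicate 1. With the replicate block 0 genes were called in either direction, against 16 higher and 42 lower without it, so Ddr1, Cldn4, Krt23, Ly6c1, Cdhr2 and Treh lost their calls too. Ly6c1 also lost its call without a filter and with a pseudocount of 0.1, and 1 biliary marker was called without a filter or with a pseudocount of 5. The medians of the 5 lists of related genes moved by less than the spread between libraries in all alternatives. The number of libraries limits what differences in Fabp4, Fabp5 and Fabp7 could be detected.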
